A study of Mus musculus with 40 samples.

Results

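The 10 activity-induced immediate early genes Fos, Fosb, Junb, Arc, Egr1, Egr2, Egr3, Npas4, Nr4a1 and Ier2 were followed across a hippocampal RNA-seq series of 40 mice. They were taken by symbol as genes of memory formation, by a rule with no threshold on their values but with earlier results of these data known, and are 10 of the 40853 genes in the count table. All 10 were among the 28449 genes tested, those whose counts summed to 20 or more across the mice. According to the methods of the study, all mice carried floxed alleles of both genes of the histone variant H2A.Z, H2A.Z.1 and H2A.Z.2, and received AAV by stereotaxic injection into the hippocampus. KD mice received Cre under the synapsin promoter, which is active in neurons, with 3xMyc. KD+WT, KD+KA and KD+KQ mice received Cre with 3xMyc-tagged H2A.Z.1 under the CMV promoter, in the wild-type form or in a mutant form in which alanine (KA, acetyl-defective) or glutamine (KQ, acetyl-mimic) replaces lysines of the N-terminal tail. Myc controls received 3xMyc without Cre, and their genotype is labelled WT, which differs from the floxed alleles that the methods give for every group. There were 4 KD, 4 KD+WT, 4 KD+KA, 3 KD+KQ and 3 Myc females, and 4 KD, 5 KD+WT, 4 KD+KA, 5 KD+KQ and 4 Myc males, with 1 library of hippocampal tissue per mouse. The study tested mice for memory, with protocols that differed between subsets of mice. Whether and how these 40 mice were tested, their age at collection and the interval between any last test and tissue collection are not given in the sources used here.

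Immediate early genes are transcribed within minutes of a burst of neuronal firing, from transcription factors that are already present in the cell, and need no new protein. Calcium entry through synaptic receptors and channels activates calcium/calmodulin-dependent kinases and the ERK pathway, which act on CREB, SRF with its ELK partners, and MEF2 at the promoters and enhancers of these genes. Fos, Fosb and Junb encode subunits of the dimeric transcription factor AP-1. Egr1, Egr2 and Egr3 are zinc finger transcription factors, Npas4 is a neuronal bHLH-PAS transcription factor, Nr4a1 is an orphan nuclear receptor, Ier2 encodes a small nuclear protein, and Arc encodes a synaptic protein that takes part in the removal of AMPA receptors from synapses. In the hippocampus their transcripts are widely used to mark neurons that were active shortly before the tissue was taken.

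The promoters of Fos, Egr2, Ier2 and Arc are shown because the first 3 of these genes were higher in KD than in Myc mice in the test over both sexes and Arc was not. Each sequence is the 250 bases upstream of the start of the Ensembl canonical transcript in GRCm39, on the strand of the gene. Fos lies on the plus strand of chromosome 12 (gene chr12:85520658-85524047, window chr12:85520408-85520657). Egr2 lies on the plus strand of chromosome 10 (gene chr10:67371305-67378018, window chr10:67373442-67373691). Ier2 lies on the minus strand of chromosome 8 (gene chr8:85387960-85389483, window chr8:85389484-85389733). Arc lies on the minus strand of chromosome 15 (gene chr15:74540932-74544419, window chr15:74544420-74544669). Capitals mark the core of the cAMP response element (CRE), TGACG on either strand, the whole palindromic CRE, TGACGTCA, and the CArG box, the site bound by SRF.
Fos: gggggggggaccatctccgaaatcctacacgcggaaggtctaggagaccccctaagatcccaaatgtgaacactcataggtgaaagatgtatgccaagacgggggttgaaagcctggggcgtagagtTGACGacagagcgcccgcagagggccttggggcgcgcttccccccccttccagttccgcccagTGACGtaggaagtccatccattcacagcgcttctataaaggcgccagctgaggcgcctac
Egr2: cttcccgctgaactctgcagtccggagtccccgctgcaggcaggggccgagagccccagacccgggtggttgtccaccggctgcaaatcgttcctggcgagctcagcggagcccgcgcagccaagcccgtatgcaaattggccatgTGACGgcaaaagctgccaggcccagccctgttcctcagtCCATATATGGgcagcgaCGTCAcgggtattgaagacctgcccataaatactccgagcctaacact
Ier2: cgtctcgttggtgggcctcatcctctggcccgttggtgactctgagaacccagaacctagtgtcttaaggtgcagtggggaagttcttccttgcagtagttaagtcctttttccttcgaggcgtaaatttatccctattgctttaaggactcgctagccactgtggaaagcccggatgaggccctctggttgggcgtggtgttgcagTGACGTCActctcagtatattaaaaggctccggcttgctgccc
Arc: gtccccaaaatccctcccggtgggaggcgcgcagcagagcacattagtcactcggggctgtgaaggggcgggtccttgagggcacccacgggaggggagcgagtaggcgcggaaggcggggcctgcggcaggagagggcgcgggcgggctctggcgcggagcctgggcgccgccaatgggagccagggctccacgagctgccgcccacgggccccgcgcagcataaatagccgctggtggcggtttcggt
The core TGACG, which is contained in the palindromic CRE, was present on either strand in 8 of the 10 members (all but Arc and Npas4), and in 18% of the 21770 promoters of protein-coding genes read in the same way. In Fos it stood 60 bases and 123 bases before the start. The palindromic TGACGTCA was found in Ier2 only, against 1.69% of all promoters, and the CArG box in Egr2 and Egr3, against 1.4%. The AP-1 site TGANTCA, searched on both strands, was in 0 of the 10 windows and in 6.17% of all promoters, and the EGR site GCGTGGGCG was in 0 and in 0.547%. TATAAA was in Fos, Junb and Nr4a1, and in 11.9% of all promoters. A match describes these letters only. Fosb, Egr1, Egr3 and Nr4a1 also held the core and were not called in KD over Myc in either sex or over both sexes.

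The remaining members lie in GRCm39 at chr7:19036621-19043976 (Fosb, minus strand), chr8:85701113-85705359 (Junb, minus), chr18:34992876-34998049 (Egr1, plus), chr14:70314350-70320063 (Egr3, plus), chr19:5034382-5040344 (Npas4, minus) and chr15:101151980-101172681 (Nr4a1, plus). Whether reads were counted by strand is not given in the sources used here. In GENCODE vM39, Junb overlaps Prdx2 and the lncRNA Gm65321 on the opposite strand, Egr2 the lncRNA Gm66196 on the opposite strand, and Nr4a1 the lncRNAs Gm56721 on its own and Gm63176 and Gm63180 on the opposite strand, so that reads of these partners could be part of their counts.

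Libraries held 24342921 to 45982772 counts assigned to genes, with a median of 36417111.5. Levels are given as CPM, the count of a gene relative to the library total after TMM scaling. The lowest count of any member in any mouse was 61, for Egr2. No pair of mice within a group was alike to within counting error (chi-square divided by its degrees of freedom 8.16 to 286, the highest between Myc females 11 and 32). H2az1 stood at 28.1 to 36.3 CPM in KD females, against 28.1 to 34.5 CPM in Myc females, and at 17.7 to 37.6 CPM in KD males, against 27.0 to 37.2 CPM in Myc males. H2az2 stood at 26.2 to 30.0 CPM in KD females, against 19.4 to 26.0 CPM in Myc females, and at 20.8 to 29.3 CPM in KD males, against 20.6 to 26.5 CPM in Myc males. Neither gene was lower in KD libraries (log2 fold change over both sexes -0.06, adjusted p = 0.732, for H2az1 and 0.21, adjusted p = 0.0285, for H2az2, higher in KD). Viral H2A.Z.1 can add to H2az1 counts only in KD+WT, KD+KA and KD+KQ mice, since KD and Myc mice received none. In edgeR's test H2az1 passed over KD in none of these groups. Its log2 fold changes were 0.24 to 0.44, with an adjusted p of 0.0774 to 0.283. Which exons the loxP sites flank is not given in the sources used here, and glia also carry both genes. The H2az1 and H2az2 counts therefore did not check the labels, and each group name below means the libraries labelled so. In the series, 4 mice had over 1000 CPM of the choroid plexus gene Ttr (KD females 14 and 33, KD+KQ female 17 and KD+WT female 20). Myc female 31 had the lowest summed level of dentate granule neuron markers in the series (253 CPM) with the highest of CA1 markers (998 CPM).

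Transcript levels of the members spanned a wide range in Myc mice. Per kilobase of exon, Arc was the most abundant member, at a mean of 34.1 CPM per kb in Myc females and 42.7 CPM per kb in Myc males, followed by Egr1 at 27.6 and 28.5, Junb at 17.2 and 17.1, and Egr3 at 12.9 and 15.6 CPM per kb. Nr4a1 (4.68 and 4.63), Npas4 (3.12 and 3.55), Fos (3.07 and 3.36) and Ier2 (2.99 and 3.00 CPM per kb) were lower. The length used merges the exons of all annotated transcripts of a gene, 10903 bases for Nr4a1, so the order depends on it. Without division by length, Nr4a1 averaged 51 CPM in Myc females and 50.5 CPM in Myc males, above Junb at 41 and 40.8 CPM. Egr2 (0.934 and 0.769) and Fosb (0.849 and 0.718 CPM per kb) were the lowest. No member differed between Myc females and Myc males in edgeR's quasi-likelihood test (0 of 10, and 0 at an unadjusted p under 0.05, against 0.0457% of all genes called), with log2 fold changes of -0.32 for Arc to 0.28 for Egr2.

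H2A.Z deletion was compared with Myc within each sex to ask how loss of the variant in neurons affects transcription. Fos and Egr2 were 2.18-fold to 3.18-fold higher in KD than in Myc mice of both sexes, with no overlap between the groups (18.8% of all genes in females and 15% in males had every KD mouse above every Myc mouse), while Arc, Egr1, Egr3 and Nr4a1, which include the most abundant members, passed the test in neither sex. In females 3 members rose (Fos, Egr2 and Junb) and none fell, and in males 2 rose (Fos and Egr2) and none fell. Of all genes tested, 18.1% were called higher in KD females and 16.5% lower, and 17.2% were called higher in KD males and 14.4% lower, so that the members' counts were close to the share of all genes. In the mean of both sexes, which uses 8 KD and 7 Myc mice, Fos, Egr2, Ier2 and Junb rose, 4 of 10 members against 24.1% of all genes called higher, and 0 of 10 fell, against 21.9%. The Junb call over both sexes was lost without the mice over 1000 CPM of Ttr (adjusted p = 0.0639) and without Myc female 11 or 32 or Myc male 23 or 41 (0.0543 to 0.0658), and Npas4 was called without the Ttr mice (0.0358). The median log2 fold change of the 10 members was 0.45 in females, 0.34 in males and 0.36 over both sexes, and that of all genes 0, 0.03 and 0.02.

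Of Fos, Fosb and Junb, Fos rose in both sexes. It was at 35.1, 22.9, 20.1 and 13.6 CPM in KD females, against 5.56, 8.30 and 7.88 CPM in Myc females. In males it was at 13.1, 18.3, 13.9 and 24 CPM in KD mice, against 7.84, 11.0, 6.22 and 6.57 CPM in Myc mice. Every KD mouse lay above every Myc mouse of its sex. The difference was 3.18-fold in females (log2 fold change 1.67, SE 0.36, adjusted p = 4.8e-04) and 2.18-fold in males (log2 fold change 1.13, SE 0.32, adjusted p = 0.00667). It passed the test without any one of the mice compared, at log2 fold changes of 1.39 to 1.85 in females and 0.93 to 1.33 in males.

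Junb, the AP-1 partner of Fos proteins, changed little in size. Its levels were 57.9, 56.3, 57.0 and 53.0 CPM in KD females, against 37.1, 47.1 and 38.7 CPM in Myc females. The 4 KD females were close together and all above the Myc females (log2 fold change 0.45, SE 0.178, adjusted p = 0.0465). This call was at the edge of the threshold, since the adjusted p ranged from 0.036 to 0.161 when 1 mouse was left out and passed in 1 of the 7 cases. KD males had 42.8, 47.1, 51.1 and 47.8 CPM, against 41.4, 54.1, 33.8 and 33.9 CPM in Myc males, and the groups overlapped (log2 fold change 0.21, adjusted p = 0.359). Fosb, a close relative of Fos that also yields a stable truncated protein, was at 5.04 to 8.78 CPM in KD females, against 5.07 to 5.61 CPM in Myc females (log2 fold change 0.26, adjusted p = 0.511). In males it was at 4.06 to 9.07 CPM in KD mice, against 3.58 to 5.27 CPM in Myc mice (log2 fold change 0.54, adjusted p = 0.111).

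The 3 Egr genes differed from each other. Egr2 was at 11.2, 10.2, 9.53 and 5.94 CPM in KD females, against 2.68, 3.76 and 3.11 CPM in Myc females. KD males had 4.73, 5.37, 5.47 and 7.39 CPM, against 2.06, 4.57, 1.94 and 1.90 CPM in Myc males. The groups did not overlap in either sex, although Myc male 22, at 4.57 CPM, came close to the lowest KD male. Egr2 was 2.90-fold higher in KD females (log2 fold change 1.54, SE 0.386, adjusted p = 0.00213) and 2.20-fold higher in KD males (log2 fold change 1.14, SE 0.35, adjusted p = 0.0119), and it passed without any one of the mice. Egr1, which responds to a wide range of synaptic stimuli, was at 130, 180, 211 and 156 CPM in KD females, against 103, 142 and 127 CPM in Myc females (log2 fold change 0.45, SE 0.284, adjusted p = 0.233). In males it was at 100, 91.4, 154 and 230 CPM in KD mice, against 120, 167, 117 and 108 CPM in Myc mice, and the KD males spread on both sides of the Myc males (log2 fold change 0.17, adjusted p = 0.675). Egr3 varied least of all members. It averaged 65.5 ± 9.78 CPM in KD females and 60.9 ± 9.55 CPM in Myc females (SD, n = 4 and 3), and 71.8 ± 16.3 CPM in KD males and 73.3 ± 4.1 CPM in Myc males (SD, n = 4 each). Its log2 fold change over both sexes was 0.04 with a 95% interval of -0.17 to 0.24.

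Ier2 passed the test in the mean of both sexes and in neither sex alone, although alternatives differed. It was at 7.54, 6.76, 8.61 and 5.50 CPM in KD females, against 3.55, 6.37 and 3.75 CPM in Myc females (log2 fold change 0.64, adjusted p = 0.0538). KD males had 5.84, 5.59, 7.25 and 6.44 CPM, against 3.47, 6.54, 4.84 and 3.45 CPM in Myc males (log2 fold change 0.46, adjusted p = 0.147). In each sex 1 Myc mouse lay among the KD mice. In females it was called with DESeq2 size factors (adjusted p = 0.0496), with the range of the mouse number as a covariate (0.0459), with DESeq2 (0.0338) and without Myc female 31 (0.0128) or KD female 34 (0.0329), and in males without Myc male 22 (0.0399). Over both sexes the log2 fold change was 0.55 (SE 0.178, adjusted p = 0.00997), and it kept an adjusted p of 0.00202 to 0.0425 when any one mouse was left out.

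Arc did not follow Fos. It was at 99.4, 101, 166 and 114 CPM in KD females, against 94.5, 142 and 120 CPM in Myc females, with a log2 fold change of 0.01 and a 95% interval of -0.84 to 0.87. KD males had 46.7, 54.1, 85.3 and 170 CPM, against 141, 260, 95.5 and 98.7 CPM in Myc males. Here 3 of the 4 KD males lay below every Myc male, and KD male 42 above 3 of the 4 (log2 fold change -0.74, SE 0.39, adjusted p = 0.156). Without KD male 42 the log2 fold change was -1.26 and the adjusted p was 0.014, so that the absence of a call rested on this mouse. Nr4a1 had a similar layout in males, with 27.0, 30.4, 49.3 and 69.3 CPM in KD mice, against 50.7, 65.6, 48.4 and 37.4 CPM in Myc mice (log2 fold change -0.20, adjusted p = 0.649), and was at 42.8 to 67.8 CPM in KD females, against 40.4 to 60.7 CPM in Myc females (log2 fold change 0.06, adjusted p = 0.903). Npas4 was at 34.2, 11.2, 19.8 and 15.0 CPM in KD females, against 10.1, 12.1 and 16.5 CPM in Myc females (log2 fold change 0.64, adjusted p = 0.227). In males it was at 12.5, 16.7, 21.1 and 33.0 CPM in KD mice, against 14.5, 16.6, 13.9 and 13.7 CPM in Myc mice (log2 fold change 0.50, adjusted p = 0.324). For Npas4 the KD and Myc groups overlapped in both sexes, and the KD groups reached further up, in KD female 13 and KD male 42.

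**Figure D1:**
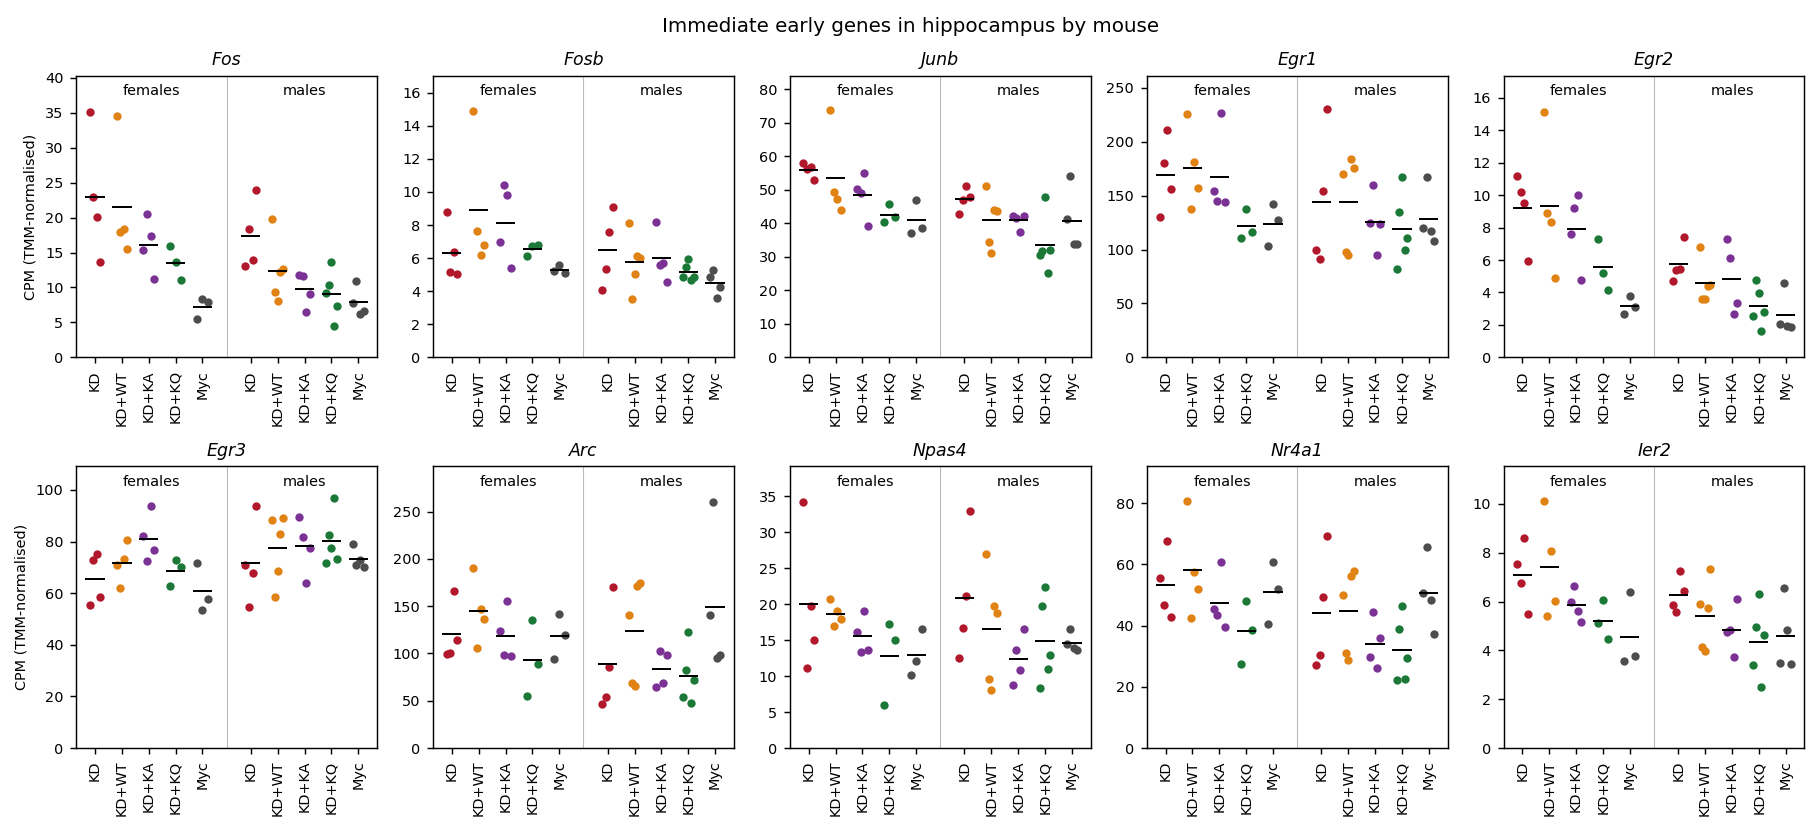
TMM-normalised CPM of each immediate early gene in each mouse (points) with the group mean (line), by virus group, females left and males right in each panel, on linear axes that start at 0. Fos in KD females (13.6 to 35.1 CPM) and KD males (13.1 to 24 CPM) lies above Myc (5.56 to 8.30 and 6.22 to 11.0 CPM), whereas the groups overlap for Egr1, Egr3, Arc and Nr4a1.

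**Figure D2:**
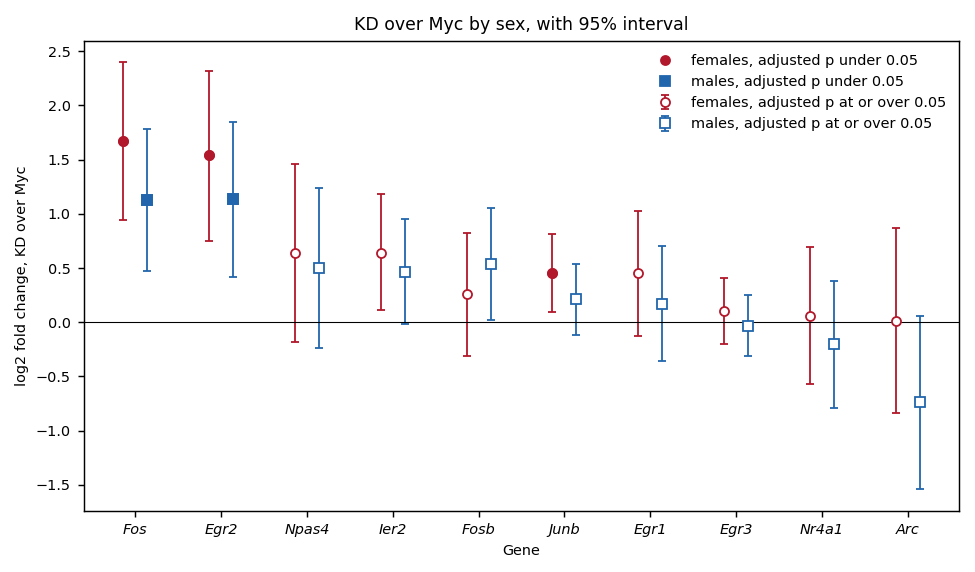
Log2 fold change of KD over Myc (vertical axis) for each gene in females (circles) and males (squares) with 95% intervals from the fit, filled where the adjusted p is under 0.05, ordered by the mean of the sexes. Fos (1.67 and 1.13) and Egr2 (1.54 and 1.14) are filled in both sexes, Junb in females only (0.45), and the intervals of Arc cross 0 in both.

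The relation of KD to Myc was not distinguishable between the sexes for any member. Tested as an interaction, the response was larger in females by 0.54 on the log2 scale for Fos (95% interval -0.41 to 1.5), by 0.40 for Egr2 (-0.64 to 1.44) and by 0.75 for Arc (-0.42 to 1.93), with an adjusted p of at least 0.998 for each of the 10 members. In edgeR's test 0 of 10 members and 0% of all genes passed, and 0 members and 1569 genes had an unadjusted p under 0.05, while DESeq2 called 0 members, 7 genes higher and 23 lower. The mouse numbers in the titles fall into ranges (1 to 20, 21 to 40 and 41 to 46), which the labels do not explain. Within a sex and a range, KD was above Myc in 5 of 5 comparisons for Fos (differences of mean log2 CPM 0.74 to 2.34), Egr2 (0.86 to 1.97), Junb (0.12 to 0.62) and Ier2 (0.36 to 1), in 4 of 5 for Fosb, Egr1 and Npas4, in 3 of 5 for Arc (-1.48 to 0.79), and in 2 of 5 for Egr3 and Nr4a1. Each comparison held only 1 or 2 KD and 1 or 2 Myc mice. For Fos and Egr2 in both sexes, and for Junb in females, the direction was fixed beforehand, because KD and Myc mice did not overlap there. The share of all genes above Myc in 5 of 5 was not counted.

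The balance between members within a library does not depend on how libraries are scaled. For every 100 counts of Egr1, KD females had 27.1, 12.7, 9.52 and 8.73 counts of Fos, against 5.38, 5.84 and 6.22 in Myc females. KD males had 13.0, 20.0, 9.01 and 10.4, against 6.54, 6.63, 5.32 and 6.06 in Myc males. The Myc mice of both sexes lay within a narrow range, which all 8 KD mice exceeded. Egr2 counts per 100 counts of Egr1 were 8.62, 5.64, 4.52 and 3.81 in KD females, against 2.60, 2.64 and 2.45 in Myc females, and 4.71, 5.88, 3.54 and 3.21 in KD males, against 1.72, 2.74, 1.66 and 1.76 in Myc males, again with no overlap. Relative to Arc the separation of Fos was wider, at 11.9 to 35.3 Fos counts per 100 counts of Arc in KD females, against 5.83 to 6.57 in Myc females, and 14.1 to 33.8 in KD males, against 4.25 to 6.65 in Myc males. With replacement, the mean was 12.1 ± 2.56 Fos counts per 100 of Egr1 in KD+WT, 9.89 ± 3.01 in KD+KA and 11.3 ± 2.76 in KD+KQ females, and 8.73 ± 2.0 in KD+WT, 7.69 ± 1.15 in KD+KA and 7.68 ± 2.45 in KD+KQ males (SD, n = 4, 4, 3, 5, 4 and 5). These ratios were chosen after the values of the members were seen, when Fos and Egr2 were already known not to overlap, and are given without a test. How many other genes separate KD from Myc in the same way relative to Egr1 or Arc was not counted.

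**Figure D3:**
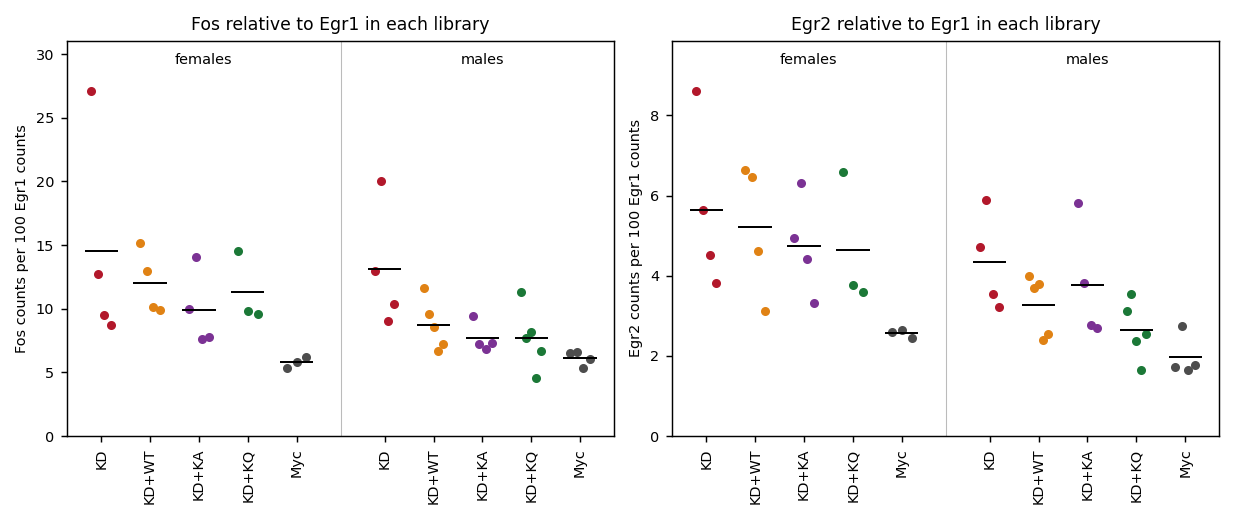
Counts of Fos (left) and Egr2 (right) per 100 counts of Egr1 in each mouse (points) with the group mean (line), by virus group within each sex, on linear axes that start at 0. All KD mice (8.73 to 27.1 for Fos) lie above all Myc mice (5.32 to 6.63), replacement females (7.66 to 15.2) also lie above Myc, and replacement males (4.57 to 11.6) overlap it.

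Replacement groups were set against KD to ask whether viral H2A.Z.1, wild type or mutant, changes the levels reached after deletion. In females no member passed for KD+WT, KD+KA or KD+KQ (0 of 10 each, against 9.17%, 9.62% and 7.63% of all genes called lower and 5.36%, 5.63% and 5.36% called higher). In males 0 members passed for KD+WT and KD+KA (12% and 9.94% of all genes called lower, 7.44% and 5.86% higher), and Fos and Junb fell in KD+KQ (2 of 10, against 12.7% of all genes called lower and 8.72% higher). At an unadjusted p under 0.05, there were 0 members for KD+WT in either sex and 1 for KD+KA in each sex. For KD+KQ there were 2 in females and 4 in males. Egr3 in KD+KA females was higher (log2 fold change 0.31), and the other members counted here were lower. In females, 7714, 8025 and 7504 of all genes tested had such a p for KD+WT, KD+KA and KD+KQ. In males, 8797, 8074 and 9103 did. The median log2 fold change of the members over KD was 0.06 for KD+WT, -0.19 for KD+KA and -0.45 for KD+KQ in females, and -0.18, -0.22 and -0.47 in males, beside -0.02 to 0.01 for all genes. DESeq2 called 0 members in each of the 5 comparisons with 0, except 1 (Fos) for KD+KA males. These comparisons share the KD mice of a sex.

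Of the replacement males, only those with KD+KQ passed the test for Fos over KD. KD+WT males had 19.8, 9.32, 8.12, 12.2 and 12.7 CPM (log2 fold change over KD -0.47, SE 0.296, adjusted p = 0.293), against the 13.1 to 24 CPM of KD males. KD+KA males had 11.8, 11.6, 6.53 and 9.03 CPM, all below KD, as were 9.7% of all genes (log2 fold change -0.82, SE 0.316, adjusted p = 0.0733). KD+KQ males had 9.26, 10.4, 13.6, 4.54 and 7.37 CPM, with only mouse 28 reaching the KD males (log2 fold change -0.94, SE 0.299, adjusted p = 0.0221). The KD+KQ call was lost without KD male 4 or 42 or KD+KQ male 44 or 45, at an adjusted p of up to 0.0907 and log2 fold changes of -1.13 to -0.74. Junb was at 30.5, 31.9, 48.0, 25.3 and 32.2 CPM in KD+KQ males, against 42.8 to 51.1 CPM in KD males (log2 fold change -0.49, SE 0.155, adjusted p = 0.0196), and this call was lost without KD male 21 or KD+KQ male 44. Egr2 was at 2.55, 4.78, 3.94, 1.65 and 2.81 CPM in KD+KQ males, against 4.73 to 7.39 CPM in KD males (log2 fold change -0.86, SE 0.326, adjusted p = 0.0562), and was called lower with edgeR's filterByExpr (0.0428), with DESeq2 (0.0266), with only the groups of the comparison fitted (0.0477) and without KD+KQ male 27 (0.0233). KD+KQ male 44 had the lowest Fos, Junb, Egr2 and Ier2 and the highest Egr3 of all 40 mice.

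In females the order of the Fos means was KD (22.9 ± 9 CPM), KD+WT (21.6 ± 8.71), KD+KA (16.1 ± 3.9), KD+KQ (13.6 ± 2.47) and Myc (7.25 ± 1.48 CPM; SD, n = 4, 4, 4, 3 and 3). Neighbours in this order overlapped, except that KD+KQ females, at 16.0, 13.6 and 11.1 CPM, all lay above Myc. KD+WT females had 34.5, 17.9, 18.3 and 15.5 CPM, a level like that of KD females (log2 fold change over KD -0.09 with a 95% interval of -0.72 to 0.54), and KD+KA females had 15.4, 20.5, 17.4 and 11.2 CPM. In males the order was the same, KD (17.3 ± 5 CPM), KD+WT (12.4 ± 4.54), KD+KA (9.74 ± 2.48), KD+KQ (9.03 ± 3.38) and Myc (7.92 ± 2.2 CPM; SD, n = 4, 5, 4, 5 and 4), and each neighbour overlapped the next. Egr2 in females stood at 15.1, 8.89, 8.35 and 4.91 CPM in KD+WT, 7.59, 9.19, 10.0 and 4.78 CPM in KD+KA and 7.30, 5.22 and 4.16 CPM in KD+KQ mice, all above the highest Myc female at 3.76 CPM (12.2%, 10.4% and 13.5% of all genes had every mouse above Myc in these groups). Egr2 in males stood at 6.79, 3.59, 3.59, 4.38 and 4.48 CPM in KD+WT and 7.31, 6.13, 2.65 and 3.34 CPM in KD+KA mice, which overlapped both KD and Myc males.

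**Figure D4:**
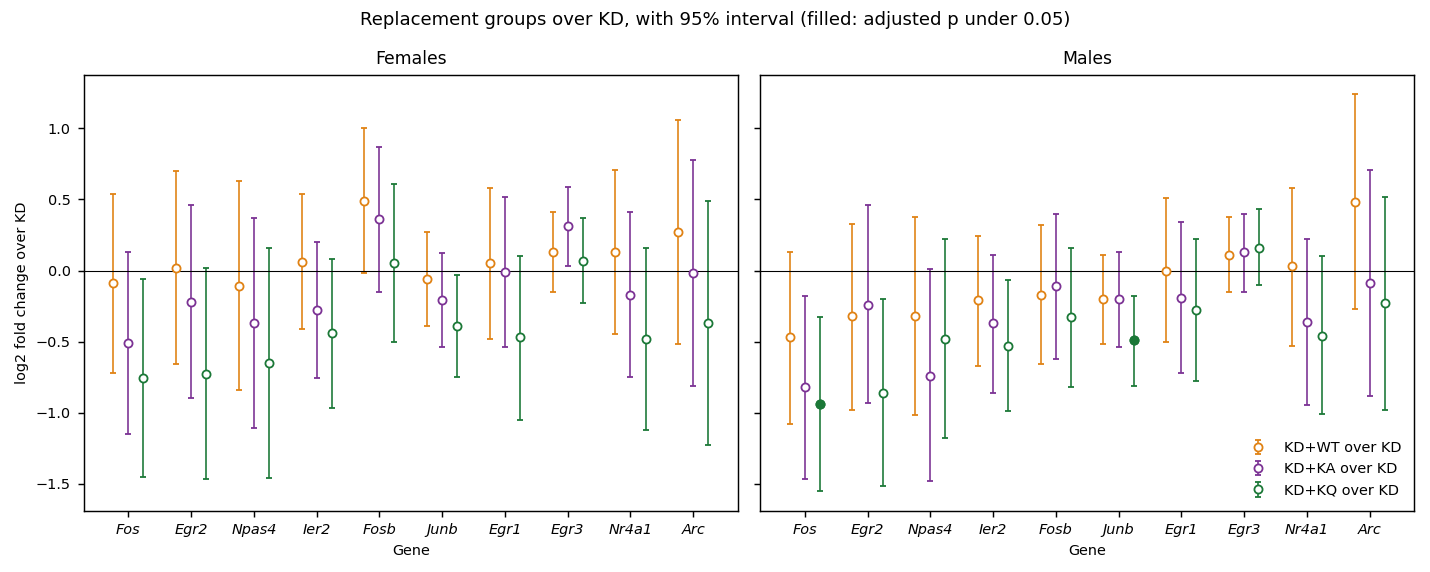
Log2 fold change over KD (vertical axis) of each gene in KD+WT, KD+KA and KD+KQ mice, females left and males right, with 95% intervals from the fit, filled where the adjusted p is under 0.05. Fos (-0.94) and Junb (-0.49) in KD+KQ males are the filled points. Of 10 values, 2 in females and 1 in males lie above 0 for KD+KQ, and likewise for KD+KA. For KD+WT, 7 in females and 3 in males lie above 0.

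Set against Myc, Fos and Egr2 passed the test in KD+WT and KD+KA females and not in KD+KQ females. In KD+WT females Fos (log2 fold change 1.58, SE 0.359, adjusted p = 0.00678) and Egr2 (1.55, SE 0.387, adjusted p = 0.0111) rose, 2 of 10 members against 5.87% of all genes called higher and 3.52% lower. In KD+KA females Fos (1.16, SE 0.355, adjusted p = 0.0405) and Egr2 (1.31, SE 0.385, adjusted p = 0.0313) rose, 2 of 10 against 4.42% higher and 3.23% lower. The KD+WT count was 1 without KD+WT female 19, and in KD+KA females both Fos and Egr2 were lost without any 1 of KD+KA mice 15, 16 and 35 or Myc mice 11, 31 and 32 (adjusted p of up to 0.143 for Fos and 0.103 for Egr2), while Egr3 was called without Myc mouse 11 (0.0409). In KD+KQ females 0 of 10 passed (3.59% of all genes higher, 2.08% lower). Fos was at a log2 fold change of 0.91 (adjusted p = 0.143) and Egr2 at 0.81 (adjusted p = 0.238). In this comparison 1 member had an unadjusted p under 0.05, beside 6069 genes. In males 0 of 10 passed for each replacement (3.66%, 5.15% and 3.48% of all genes higher and 1.68%, 2.74% and 1.65% lower for KD+WT, KD+KA and KD+KQ). DESeq2 called 1 (Egr2) for KD+KA and 0 for the others. At an unadjusted p under 0.05 there were 2 members in each, beside 5359 genes for KD+WT, 6193 for KD+KA and 5413 for KD+KQ. Fos was at log2 fold changes of 0.65, 0.30 and 0.19 over Myc in KD+WT, KD+KA and KD+KQ males, and Egr2 at 0.81, 0.90 and 0.28. Without Myc male 22, which had the highest Egr2 of its group, Egr2 was called in KD+WT and in KD+KA males. The groups of a sex share the Myc mice, and whether a replacement group differed from KD is answered by the comparisons over KD above.

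The lysine mutants were compared with each other in each sex, KD+KA over KD+KQ, to ask whether the form of the N-terminal tail affects these genes. No member passed in either sex, nor did any gene of the table (0 of 10 members and 0% of all genes in each sex in edgeR's test, with 0 members and 595 genes in females and 0 members and 2993 genes in males at an unadjusted p under 0.05). DESeq2 also called 0 members in either sex, with 7 genes of the table higher and 1 lower in females and 2 higher and 22 lower in males. The intervals were wide. For Fos the log2 difference was 0.25 in females (95% interval -0.45 to 0.94) and 0.11 in males (-0.50 to 0.73). For Egr2 it was 0.50 in females (-0.24 to 1.25) and 0.62 in males (-0.04 to 1.29), and for Arc 0.35 (-0.51 to 1.21) and 0.14 (-0.61 to 0.89). Egr3 had the narrowest intervals, at 0.24 in females (-0.06 to 0.54) and -0.04 in males (-0.30 to 0.22).

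Mice of the same group differed widely in most of these genes, and the members, Egr3 least, were high and low together. After removal of the group means, the standard deviation of log2 CPM was 0.548 for Arc, 0.528 for Npas4, 0.501 for Egr2, 0.455 for Fos, 0.411 for Nr4a1, 0.374 for Egr1, 0.373 for Fosb, 0.356 for Ier2, 0.24 for Junb and 0.206 for Egr3, against a median of 0.191 over the 15937 genes with a mean of at least 1 CPM. Arc was thus at percentile 95.2 of these genes and Egr3 at percentile 55. Averaged over the 10 members, KD male 42 stood 0.53 above its group mean on the log2 scale with 10 of 10 members above, KD+KQ male 28 0.50 above with 9, KD+WT female 19 0.48 above with 9 and Myc male 22 0.45 above with 9. At the other end, KD+WT males 29 and 10 stood at -0.47 and -0.46 with 0 of 10 members above the group mean, and KD+KQ male 44 at -0.42 with 1. These mice came from KD, KD+WT, KD+KQ and Myc groups.

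Correlations of the members over the 40 mice, with group means removed, were positive for 45 of 45 pairs, at a median Pearson r of 0.611 and a range of 0.0967 to 0.936. How often pairs of other genes are positive in the same way was not computed. Fos followed Egr2 most closely (r = 0.876, Spearman rho = 0.891, adjusted permutation p = 4.5e-05 and 9.0e-05 over the 9 relations of Fos, n = 40 mice). It followed Junb (r = 0.784, rho = 0.732), Fosb (0.712, 0.698), Ier2 (0.662, 0.605) and Nr4a1 (0.62, 0.591), and less closely Egr1 (0.538, 0.558), Arc (0.529, 0.518) and Npas4 (0.506, 0.491), with an adjusted permutation p of at most 0.00544 for each r and rho. For Egr3 no relation with Fos was seen (r = 0.0967, rho = 0.0921, adjusted permutation p = 0.608 and 0.626). Without the 2 mice farthest from the median of Fos (KD+KQ male 44 and KD+WT female 19), r was 0.848 with Egr2, 0.73 with Junb, 0.485 with Arc and 0.22 with Egr3. Within the ranges of mouse numbers 1 to 20, 21 to 40 and 41 to 46, r of Fos with Egr2 was 0.832, 0.892 and 0.932, and with Arc 0.62, 0.783 and 0.914. The range 41 to 46 held the fewest mice, all of them male. Among them were KD male 42 and KD+KQ male 44, both far from their group means. The highest pairs of all joined Nr4a1, Arc and Egr1, at r of 0.94 (Nr4a1 with Arc), 0.93 (Nr4a1 with Egr1) and 0.90 (Arc with Egr1). Values of 1 library share its tissue block and depth, and what the mice high in all members have in common was not tested.

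**Figure D5:**
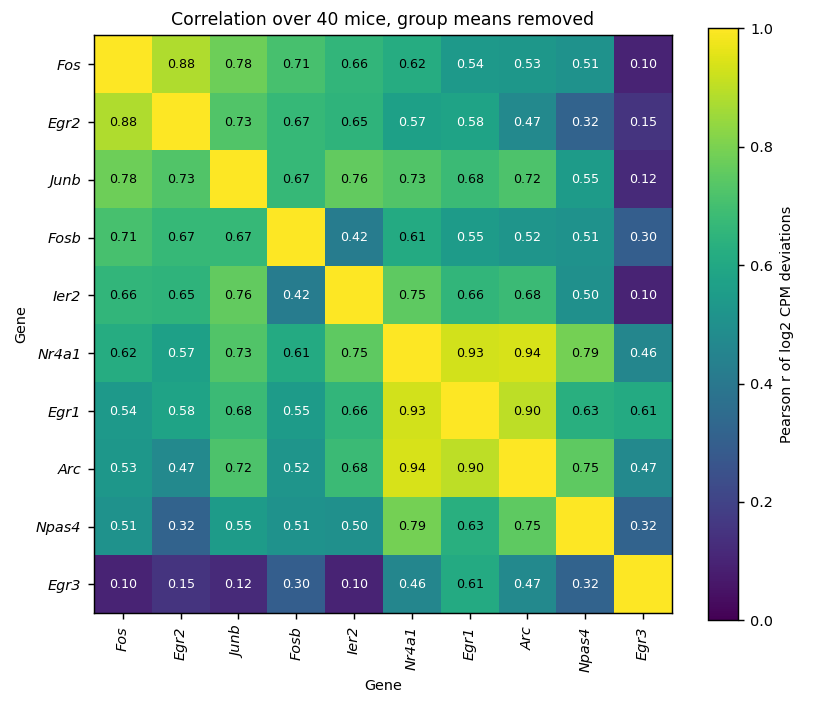
Pearson correlation (colour and number) of log2 CPM deviations from the group mean between each pair of genes over 40 mice, genes on both axes. Fos and Egr2 (0.88) and the pairs of Nr4a1, Arc and Egr1 (0.90 to 0.94) stand out, and Egr3 has the lowest values, 0.10 with Fos.

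Outside the members, the 8 genes whose deviations were most like the mean deviation of the members, among 15927 genes over 40 mice, were LOC118567915 (r = 0.902), Egr4 (0.857), Dusp1 (0.808), Apold1 (0.731), Sik1 (0.711), Dusp6 (0.684), Spry4 (0.668) and Btg2 (0.667). This is a description of which genes vary with the members between mice of a group. In KD over Myc, mean of the sexes, Sik1 (log2 fold change 0.52, adjusted p = 5.5e-04) and Btg2 (0.65, adjusted p = 6.5e-06) rose and the other 6 did not pass, with log2 fold changes of -0.41 for Egr4 to 0.21 for Dusp1.

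Further genes of the activity response were read from lists, counted in KD over Myc for the mean of the sexes beside the 24.1% of all genes called higher and 21.9% lower. Of 30 other rapid response genes, 16 rose and 4 fell (16 and 3 in females, 14 and 3 in males), with a median log2 fold change of 0.51 over both sexes, beside 0.02 for all genes. Atf3, a stress-responsive transcription factor (log2 fold change 3.09, adjusted p = 3.9e-11), Ccn1, a matricellular protein (3.26, 7.9e-10), Maff, a small Maf factor (2.93, 6.2e-10), and Klf6, a Kruppel-like factor (0.80, 1.4e-09), rose most clearly. Homer1, a postsynaptic scaffold (-0.47, adjusted p = 5.2e-06), Nr4a3, a relative of Nr4a1 (-0.68, 1.4e-04), Fbxo33 (-0.20, 0.00175) and Plk2, a kinase of synapses (-0.37, 0.0028), fell. Atf3 and Ccn1 are also known from injury in many tissues. Of 18 delayed response genes 9 rose and 2 fell. Baz1a, a chromatin remodelling subunit (2.66, adjusted p = 1.4e-11), Rgs2 (0.72, 1.5e-09), the synaptic pentraxin Nptx2 (1.36, 1.7e-06) and the secretogranin Scg2 (0.51, 0.00116) rose, and Nptx1 (-0.62, 5.2e-05) and Rasgrp1 (-0.55, 2.5e-04) fell.

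The kinases and transcription factors upstream of the members moved the other way more often. Of 29 genes 6 rose and 15 fell over both sexes, with a median log2 fold change of -0.23, beside 0.02 for all genes. The calcium-dependent kinases Camk2a (-0.88, adjusted p = 2.7e-06) and Camk4 (-0.77, 8.1e-06), the calcineurin subunit Ppp3ca (-0.65, 8.5e-07) and Rps6ka2 (-0.55, 3.6e-07) fell. Rps6ka1, a kinase below ERK (1.45, adjusted p = 3.1e-12), the SRF partner Elk3 (1.46, 4.2e-12), Atf1 (0.65, 1.6e-06) and Crtc2 (0.18, 0.00191) rose. Of 11 partners and repressors of the members 6 rose and 1 fell, with the AP-1 factors Batf (3.68, adjusted p = 3.9e-10) and Batf3 (1.84, 4.4e-07), both known from lymphocytes and dendritic cells, the EGR repressor Nab1 (0.37, 3.8e-04) and Jund (0.28, 8.5e-04) higher and Hdac4 (-0.27, 3.7e-04) lower. Of 10 heat shock genes 2 rose (Bag3, 1.28, adjusted p = 8.1e-11, and Hspb1, 1.67, 1.8e-05) and 5 fell, among them Hspa1a (-0.72, 6.3e-05).

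Markers of cell types moved with the same comparison. In bulk tissue, fewer cells of a type and less RNA per cell cannot be told apart. Of 12 general neuronal markers 0 rose and 11 fell over both sexes (median log2 fold change -0.57), and their summed level was 4250 to 7360 CPM in KD females, against 9810 to 10800 CPM in Myc females, and 5040 to 8180 CPM in KD males, against 9550 to 10500 CPM in Myc males. All 12 microglial markers rose, with summed levels of 1860 to 3260 CPM in KD females, against 403 to 672 CPM in Myc females, and 1860 to 3770 CPM in KD males, against 410 to 544 CPM in Myc males. All 12 markers of T and NK cells rose too, at 40.7 to 233 CPM in KD females, against 2.64 to 7.44 CPM in Myc females, and 114 to 303 CPM in KD males, against 1.20 to 2.94 CPM in Myc males, and their defining marker Cd3e was at 0 in at least 1 Myc female. Of 10 astrocyte markers 7 rose and 0 fell (7300 to 13100 CPM in KD females, against 4430 to 5300 CPM in Myc females, and 6750 to 10700 CPM in KD males, against 4480 to 4940 CPM in Myc males), and of 10 oligodendrocyte markers 8 rose. Dentate granule neuron markers, of which 3 of 10 rose and 1 fell, summed to 494 to 612 CPM in KD females, against 253 to 719 CPM in Myc females, and to 537 to 624 CPM in KD males, against 567 to 622 CPM in Myc males. CA1 markers (1 of 9 rose, 5 fell) and CA3 markers (2 of 9 rose, 4 fell) had median log2 fold changes of -0.54 and -0.62. Choroid plexus markers rose in females (10 of 10) and in 0 of 10 cases in males, but no gene passed edgeR's test of a difference between the sexes. Their summed level was 4050 and 2920 CPM in KD females 14 and 33 and only 117 and 67.7 CPM in KD females 13 and 34. Myc females had 27.5 to 48.7 CPM. Endothelial markers rose in 10 of 10 cases, blood markers in 4 of 6, and markers of neurons in neighbouring regions in 6 of 13, with 0 lower in each. With replacement, microglial markers fell relative to KD in 10 to 12 of 12 cases in every group of both sexes, as did 11 to 12 of 12 T and NK cell markers. The part of these cell types in the levels of the members was not tested.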

How the data were processed

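RNA was measured by paired-end RNA-seq in 40 hippocampal libraries, 1 per mouse. The deposited counts are whole reads per gene, which the authors made with Rsubread align and featureCounts on GRCm39 after FastQC 0.11.9. The strand and multi-mapping settings are not given in the sources used here. A second deposited table of normalised values was not used. Genes whose counts summed to 20 or more (28449 of 40853) were fitted with edgeR 4.0.16 (R 4.3.3, limma 3.58.1), TMM scaling, a mean per sex and virus group (residual df 30), robust quasi-likelihood tests and Benjamini-Hochberg adjustment over all genes, at a threshold of 0.05. Log2 CPM used a prior count of 2. DESeq2 1.42.0, other scalings and filters, and leaving out each mouse were alternatives. Correlation p-values came from 100000 permutations. Promoters were read from GRCm39 with GENCODE vM39.

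All 10 members were named, and of each list up to 4 genes per direction with the smallest p in KD over Myc over both sexes. The members and lists were chosen with earlier results of these data known. The mice are separate animals.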

Additional observations from a re-analysis of the deposited data

Results flagged for a closer look

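In 80 sets of 1 gene in 1 group of 4 or 5 mice, 6 had a mouse far from the others by Dixon's criterion, of which chance gives about 1 in 20 sets. KD+WT female 19 had 34.5 CPM of Fos, with the next mouse at 18.3 CPM, and 14.9 CPM of Fosb, with the next at 7.65 CPM. KD+KA male 26 had the lowest Junb of its group, at 37.5 CPM, with the next at 41.7 CPM. KD+KA female 35 had 227 CPM of Egr1, with the next at 154 CPM. KD+WT male 9 had 6.79 CPM of Egr2, with the next at 4.48 CPM. Myc male 22 had 4.57 CPM of Egr2, with the next at 2.06 CPM, and without this mouse Egr2 was called in KD+WT and KD+KA males over Myc (adjusted p = 0.0427 and 0.0221 in edgeR's test).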

How the results depend on the processing

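Of 3150 single-gene values recomputed under the alternatives, 3085 kept their side of the threshold, 35 lost and 30 gained a call, and 0 with a call changed sign, while 149 without a call did. Fos and Egr2 in KD over Myc passed in both sexes under every alternative run. The Junb call in females was lost with no filter (adjusted p = 0.0557), with the range of the mouse number as a covariate (0.055) and without the mice over 1000 CPM of Ttr (0.144). The members called in KD+KA over Myc in females were 2, and 1 with no filter and 1 without the Ttr mice. In KD+KA over KD in females there was 1 (Egr3) without the Ttr mice, against 0. With DESeq2 there were 4 in KD+WT over Myc in females, against 2, and 1 each in KD+KA over Myc (Egr2) and KD+KA over KD (Fos) in males, against 0. With only the groups of the comparison fitted there was 1 in KD+KQ over KD in females (Junb) and 1 in KD+KA over KD in males (Fos), against 0. With 1 mouse left out, the counts were 1 to 3 for KD+WT and 0 to 2 for KD+KA over Myc in females, 0 to 1 for KD+WT and 0 to 1 for KD+KA over Myc in males, and 0 to 3 for KD+KQ over KD in males. The cause of these changes was not tested. No paired analysis was possible because each mouse has its own number and the groups share none. With 3 to 5 mice per group, the width of the intervals limits what could be detected.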
